A study of Zea mays with 4 samples.

Results

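Plasma membrane intrinsic proteins (PIPs) are the aquaporins of the plant plasma membrane. Every row of the count table named PIP1 or PIP2 with a member number was taken, which gave 8 genes of 22525 IDs: PIP1-3 and PIP1-5, and PIP2-1 to PIP2-6. The table covers 4 RNA libraries from whole maize (Zea mays) seedlings, roots and shoots together, harvested at the V3 leaf stage from a greenhouse with 14 h of light. The labels give 2 libraries, coded RPI10 and RPI11, to a hybrid of the inbred lines A188 and B73, also called HiII. They give 2 libraries with the same codes to the inbred line B73 itself. No treatment is given for either genotype. What the codes stand for, and whether the libraries came from separate plants, is not given in the sources used here, so errors and p-values measure the spread between these libraries, which may be technical.

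Aquaporins are channels that let water, and in some cases other small neutral molecules, cross a membrane down its gradient. PIP channels assemble as tetramers and carry much of the water that enters and leaves plant cells, in roots, growing tissue and leaves. PIP2 proteins of maize are active water channels when made alone in frog oocytes, whereas PIP1 proteins show little activity alone and reach the plasma membrane when they assemble with PIP2 partners. The genes are closely similar in sequence, so reads could be split or shared between copies, and the values of each member are uncertain to that extent. All 8 symbols were found by name among RefSeq genes (Zm-B73-REFERENCE-NAM-5.0). RefSeq gives PIP1-4 as another name of the PIP1-3 gene, and it places PIP2-1 and PIP2-6 as neighbours with 1 protein-coding gene between them. PIP1-1 and PIP1-2, which RefSeq also names, had no row under those names and were not analysed here.

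Library totals ran from 883812 to 1341976 counts in the hybrid and from 275271 to 403858 in B73, so the hybrid libraries were the deeper ones. Values are given as CPM, counts per 1000000 counts of the library, with each library total scaled by the trimmed mean of M-values (TMM). A single count was worth 0.979 and 1.42 CPM in the hybrid libraries, and 2.78 and 1.96 CPM in the B73 libraries. CEL-Seq2 reads transcripts near the 3′ end, so CPM values were not divided by transcript length. The 8 PIP rows together held 373 and 227 counts in the hybrid libraries, against 54 and 79 in the B73 libraries. The B73 values of single members therefore rest on few counts. Of the leaf markers listed (CAB1, FDX1, FDX2, psbA, rbcL, psaA and psaB), 3 of 7 had rows, and each of the 3 was counted in all 4 libraries. No root marker was listed, so the root part of the seedlings was not checked.

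The 2 hybrid libraries held a different mixture of PIP transcripts from the 2 B73 libraries. PIP2-3 and PIP2-4 were higher in the hybrid, by 24.1-fold and 6.20-fold in the fitted model, and PIP1-3 was 4.06-fold lower. The call of PIP1-3 was lost with DESeq2 (DESeq2 adjusted p = 0.259). PIP2-1 and PIP2-2 differed by 1.80-fold and 2.07-fold in the fit and did not pass the test. By mean CPM both were among the more abundant PIP2 members in both genotypes. In B73 this rests on 1 library for PIP2-2, which had 23 counts there and 1 count in the other. The PIP1 members made up 7.25% ± 3.40 of PIP counts in the hybrid, against 34.2% ± 19.7 in B73 (SD, n = 2 libraries each).

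**Figure D1:**
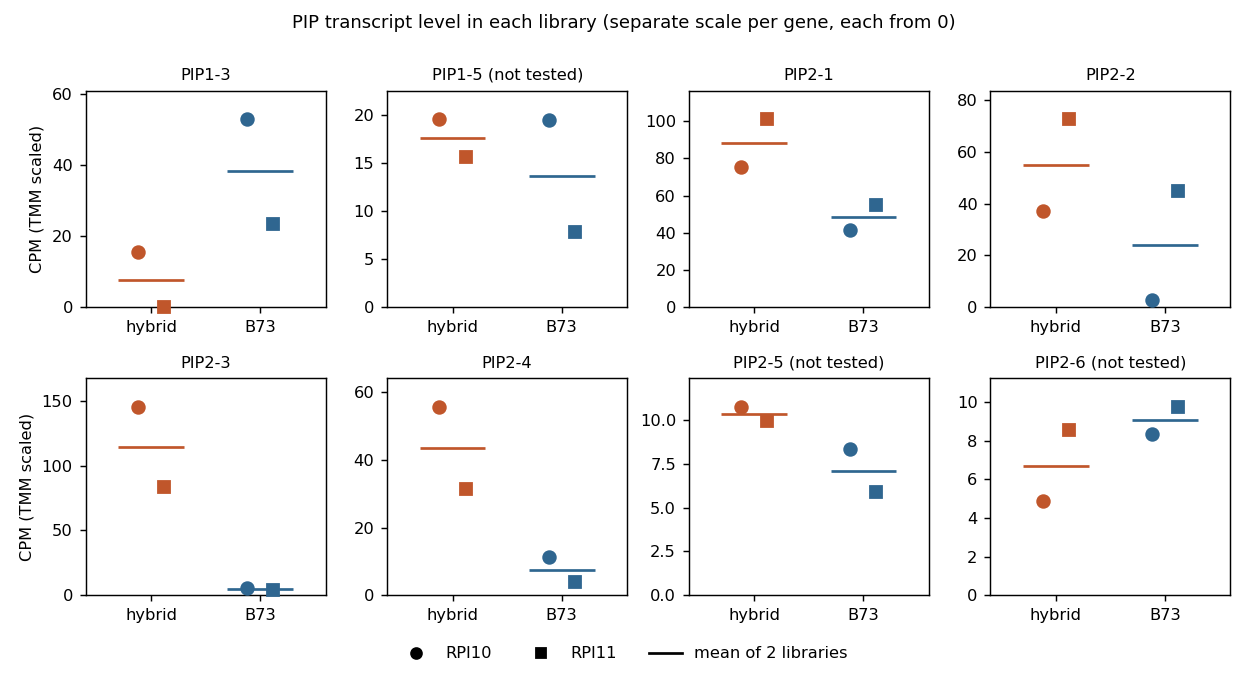
Each panel plots 1 PIP gene, with TMM-scaled CPM on the y axis from 0 and the hybrid left of B73. Points are libraries (circle RPI10, square RPI11) and lines are means of 2 libraries. PIP2-3 and PIP2-4 lie higher in both hybrid libraries than in both B73 libraries, PIP1-3 lies lower, and PIP2-2 has 1 low B73 library.

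Each member was tested within a fit over all IDs (edgeR quasi-likelihood test, Benjamini-Hochberg adjustment). The filter on low counts asked for 15.5 CPM of the library total in at least 2 libraries, and 5 of the 8 members passed it. PIP2-3 and PIP2-4 passed through the hybrid libraries alone and PIP1-3 through the B73 libraries alone. With the other genotype below the filter's level, these 3 were tested only because of the genotype where they were higher. Among the 5 tested, 2 were higher and 1 was lower in the hybrid at an adjusted p under 0.05. Across all 3282 IDs tested, 50.6% were called, 25.3% higher and 25.4% lower. Calls were thus common across the table, and the members' counts are given as a description. Of the 5, only PIP2-3 and PIP2-4 were called as changed by more than 2-fold (glmTreat, Benjamini-Hochberg), a test that called 31.0% of IDs, 15.4% higher and 15.7% lower.

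PIP2-3 encodes a water channel of the PIP2 group. It had 149 and 59 counts in the hybrid libraries, against 2 and 2 counts in the B73 libraries. That is 146 and 84.0 CPM in the hybrid, against 5.57 and 3.91 CPM in B73. Both hybrid libraries lay far above both B73 libraries. The fitted log2 fold change was 4.59 (SE 0.60, edgeR adjusted p = 0.000220), and it was past 2-fold with an adjusted p = 0.000696 (glmTreat). Of the 3282 IDs tested, 22 had a higher fold change. With counts summed by genotype, the ratio of hybrid to B73 was 26.3, and its 95% interval for counting error alone ran from 10.1 to 97.3. By abundance the gene ranked 334 and 512 among all IDs in the hybrid libraries, against 6187 and 8105 in the B73 libraries, where many IDs tie at 2 counts. Ranks do not depend on the scaling between libraries.

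PIP2-4, another PIP2 water channel, had 57 and 22 counts in the hybrid, against 4 and 2 in B73. The levels were 55.8 and 31.3 CPM in the hybrid, against 11.1 and 3.91 CPM in B73, and the genotypes did not overlap. The log2 fold change was 2.63 (SE 0.61, edgeR adjusted p = 0.00386), past 2-fold with an adjusted p = 0.0174 (glmTreat). The ratio of summed counts on the TMM scale was 6.65, with a counting interval from 2.92 to 18.7. PIP2-4 passed the test of any difference in all 10 alternatives in which it was tested, and PIP2-3 in all 11. The call of PIP2-4 past 2-fold was lost with library totals (adjusted p = 0.0762, glmTreat) and at a threshold of 0.01, whereas that of PIP2-3 held in both. The alternatives refit the same 4 libraries, so they add no independent support.

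PIP1-3 belongs to the PIP1 group, whose proteins depend on PIP2 partners. It had 16 and 0 counts in the hybrid, against 19 and 12 in B73, although the hybrid libraries were deeper. The levels were 15.7 and 0 CPM in the hybrid, against 52.9 and 23.5 CPM in B73. Both hybrid libraries lay below both B73 libraries, but the libraries within each genotype were far apart. The count of 0 allows a level of up to 4.27 CPM in that library (3 counts). The log2 fold change was -2.02 (SE 0.76, edgeR adjusted p = 0.0420), and it was not past 2-fold (glmTreat adjusted p = 0.117). The call was lost with DESeq2 (log2 fold change -1.99, adjusted p = 0.259), without the RPI11 hybrid library (log2 fold change -1.21, edgeR adjusted p = 0.101) and without the RPI10 B73 library (-1.42, edgeR adjusted p = 0.145). Without the RPI10 hybrid library the hybrid had no count at all.

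PIP2-1, a PIP2 channel with known water transport activity, was well above the filter in all 4 libraries. It had 77 and 71 counts in the hybrid, against 15 and 28 in B73. The levels were 75.4 and 101 CPM in the hybrid, against 41.7 and 54.8 CPM in B73, so both hybrid libraries were higher. The log2 fold change was 0.85 (SE 0.40, 95% interval -0.02 to 1.72), which did not pass the threshold (edgeR adjusted p = 0.0965). It passed with DESeq2 size factors within edgeR (1.07, edgeR adjusted p = 0.0409). With library totals alone it was 0.13 (edgeR adjusted p = 0.804), and with all libraries drawn to 275271 counts it was -0.024 (edgeR adjusted p = 0.967). That draw moved the fold changes of the IDs tested in both fits by a median of -0.57.

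PIP2-2 varied more between libraries of a genotype than between genotypes. It had 38 and 51 counts in the hybrid, against 1 and 23 in B73. The levels were 37.2 and 72.6 CPM in the hybrid, against 2.78 and 45.0 CPM in B73, and the genotypes overlapped. The log2 fold change was 1.05 (SE 0.66, 95% interval -0.39 to 2.49, edgeR adjusted p = 0.207). The RPI10 library of B73 decided the value: without it the log2 fold change was 0.26 (edgeR adjusted p = 0.756), and without the RPI11 library of B73 it was 4.24 (edgeR adjusted p = 0.000843). Within RPI10 the hybrid-to-B73 ratio was 13.4, with a counting interval from 2.26 to 541, and within RPI11 it was 1.61, from 0.969 to 2.77.

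The other members were too low to be tested. PIP1-5 had 20 and 11 counts in the hybrid, against 7 and 4 in B73, which is 17.6 ± 2.77 CPM in the hybrid and 13.7 ± 8.24 CPM in B73 (SD, n = 2 each). PIP2-5, a water channel studied in maize roots, had 11 and 7 counts in the hybrid, against 3 and 3 in B73, or 10.4 ± 0.565 CPM in the hybrid and 7.11 ± 1.75 CPM in B73 (SD, n = 2 each). PIP2-6 had 5 and 6 counts in the hybrid, against 3 and 5 in B73, or 6.72 ± 2.58 CPM in the hybrid and 9.06 ± 1.01 CPM in B73 (SD, n = 2 each). PIP2-5 was slightly higher in both hybrid libraries, and the other 2 overlapped between genotypes. With library totals the log2 ratio of means turned to -0.19 for PIP2-5, against 0.54 with TMM, and to -0.37 for PIP1-5, against 0.37. Counting intervals of the hybrid-to-B73 ratio included 1 for each of the 3, from 0.696 to 3.14 for PIP1-5, from 0.576 to 4.66 for PIP2-5 and from 0.254 to 1.99 for PIP2-6. When no filter was applied, their edgeR adjusted p-values were 0.620, 0.620 and 0.908. Differences of these sizes were not detectable at this depth.

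Over the 5 tested members, the hybrid libraries were both above both B73 libraries for PIP2-1, PIP2-3 and PIP2-4 and both below for PIP1-3. Across all tested IDs this separation held for 76.2%, made up of 36.1% with the hybrid above and 40.2% with the hybrid below. The ratio of hybrid to B73 within each code went the same way in both codes for the 8 members on the TMM scale, where 85.6% of all tested IDs did so. It was 26.2 in RPI10 and 21.5 in RPI11 for PIP2-3, 5.01 and 8.01 for PIP2-4, and 1.80 and 1.85 for PIP2-1. For PIP1-5 it was 1.00 in RPI10 and 2.00 in RPI11, so the first pair showed almost no difference. With library totals 6 of the 8 members went the same way in both codes, where 86.9% of all tested IDs did so. The exceptions were PIP1-5 (0.586 in RPI10 and 1.26 in RPI11) and PIP2-5 (0.752 and 1.07). The 8 members include PIP1-5, PIP2-5 and PIP2-6, which were too low to be among the tested IDs.

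**Figure D2:**
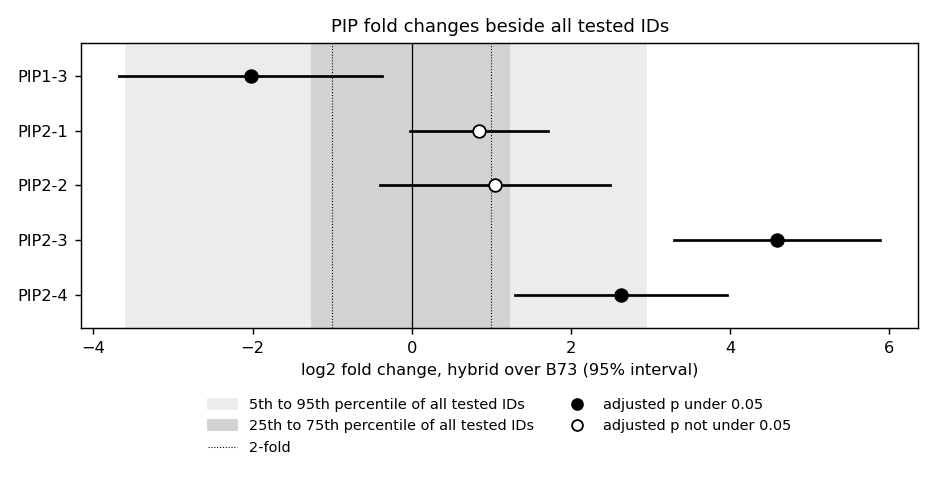
Fitted log2 fold changes of the 5 tested PIP genes, hybrid over B73, with 95% intervals. Filled points passed the test. Bands give the middle 50% and 90% of fold changes over all 3282 tested IDs. PIP2-3 at 4.59 lies above the 95th percentile of 2.94, whereas PIP1-3 at -2.02 lies inside the wide band.

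The order of the members differed between genotypes. In the hybrid it ran PIP2-3, PIP2-1, PIP2-2, PIP2-4, PIP1-5, PIP2-5, PIP1-3 and PIP2-6, with means from 115 ± 43.7 CPM to 6.72 ± 2.58 CPM (SD, n = 2). Of the 7 pairs of neighbours in that order, 4 overlapped between libraries. PIP2-1 lay above PIP2-2, PIP2-4 above PIP1-5, and PIP1-5 above PIP2-5 in both hybrid libraries. In B73 the order ran PIP2-1, PIP1-3, PIP2-2, PIP1-5, PIP2-6, PIP2-4, PIP2-5 and PIP2-3, with means from 48.3 ± 9.21 CPM to 4.74 ± 1.17 CPM (SD, n = 2). There 6 of the 7 pairs of neighbours overlapped, so most of that order is within the spread between libraries. By these means PIP2-3 stood first in the hybrid and last in B73. In single libraries PIP2-1 was higher in the RPI11 hybrid library, PIP2-2 was lower in the RPI10 library of B73, and PIP2-4 tied with PIP2-3 in the RPI11 library of B73.

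Shares of the PIP counts within a library do not depend on how libraries are scaled to each other. PIP2-3 took 39.9% and 26.0% of PIP counts in the hybrid libraries, against 3.70% and 2.53% in the B73 libraries. The exact binomial 95% intervals ran from 34.9% to 45.1% and from 20.4% to 32.2% in the hybrid, and from 0.452% to 12.7% and from 0.308% to 8.85% in B73. These intervals cover counting error only, and the genotypes' intervals did not overlap. PIP2-4 took 15.3% and 9.69% in the hybrid, against 7.41% and 2.53% in B73. PIP1-3 took 4.29% and 0% in the hybrid, against 35.2% and 15.2% in B73. It was the largest part of the PIP counts of 1 B73 library and the third largest of the other. The shares of PIP2-1 (20.6% and 31.3% in the hybrid, against 27.8% and 35.4% in B73) and PIP2-2 (10.2% and 22.5%, against 1.85% and 29.1%) overlapped between genotypes. No test was run on shares, since an exact permutation test of 2 libraries against 2 cannot pass the threshold.

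**Figure D3:**
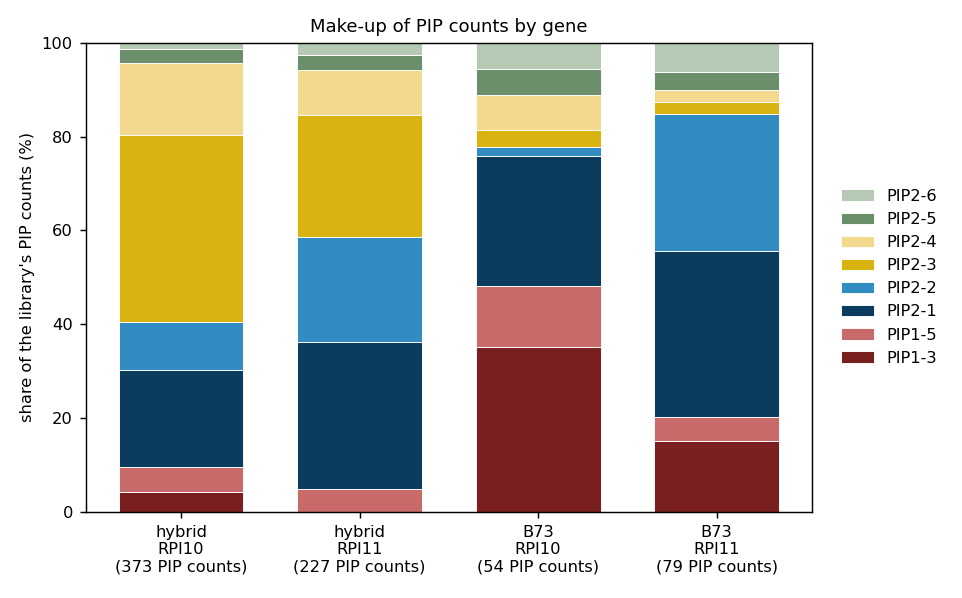
Stacked bars give the share of each PIP gene in the PIP counts of a library, hybrid libraries left and B73 libraries right, with the PIP counts in parentheses. PIP2-3 takes 39.9% and 26.0% in the hybrid, against 3.70% and 2.53% in B73, and PIP1-3 takes 4.29% and 0% in the hybrid, against 35.2% and 15.2% in B73.

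Pooled by group, the 6 PIP2 genes reached 330 and 308 CPM in the hybrid, against 77.9 and 123 CPM in B73. Both hybrid libraries were higher, and the ratio of means was 3.17. The 2 PIP1 genes reached 35.2 and 15.7 CPM in the hybrid, against 72.4 and 31.3 CPM in B73. Here the genotypes overlapped, because the lower B73 library lay below the higher hybrid library, and the ratio of means was 0.491. With library totals they did not overlap, at 26.8 and 12.4 CPM in the hybrid, against 94.5 and 39.6 CPM in B73. All 8 genes together reached 365 and 323 CPM in the hybrid, against 150 and 155 CPM in B73, a ratio of 2.26. Without PIP2-3 and PIP2-4 the ratio was 1.32, from 163 and 208 CPM in the hybrid and 134 and 147 CPM in B73. No p is given for these sums.

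The scaling set much of the pooled difference. The median shift in log2 fold change over all tested IDs, relative to TMM, was -0.72 with library totals and 0.22 with DESeq2 size factors. With library totals the ratio of pooled PIP levels was 1.37, that of PIP2 was 1.92 and that of PIP1 was 0.293. Without PIP2-3 and PIP2-4 the pooled ratio on that scale was 0.804, so its direction turned. When every library was drawn at random to 275271 counts, PIP genes held 64 and 69 counts in the hybrid, against 54 and 58 in B73. In that draw PIP2-3 had 29 and 17 counts in the hybrid, against 2 and 1 in B73, and PIP1-3 had 0 and 0 in the hybrid, against 19 and 7 in B73. Before the draw PIP1-3 had 16 and 0 counts in the hybrid libraries. A single random draw was made, so how far these values vary from draw to draw was not measured.

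**Figure D4:**
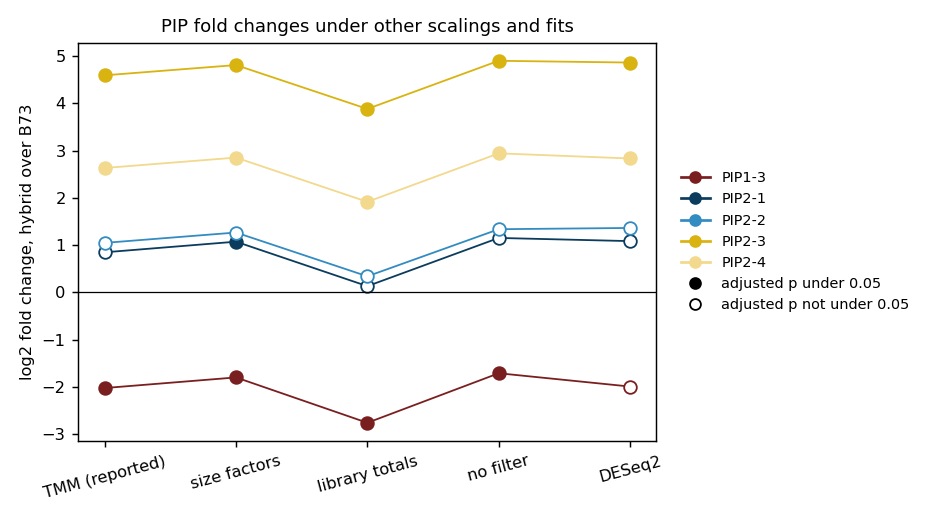
Fitted log2 fold changes (hybrid over B73) of the 5 tested PIP genes under TMM, DESeq2 size factors within edgeR, library totals, no filter and DESeq2. Filled points passed an adjusted p under 0.05. PIP2-3 and PIP2-4 are filled throughout, PIP1-3 is open with DESeq2, and PIP2-1 drops to 0.13 with library totals.

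The RPI codes were also compared. With genotype as a term, 0 of the 5 tested members were called between RPI11 and RPI10 (edgeR quasi-likelihood test, Benjamini-Hochberg), where 3.26% of all tested IDs were. At an unadjusted p under 0.05 there were 4, against 14.2% of all tested IDs. DESeq2 called 0 of the 3 members to which it gave an adjusted p, and 1.07% of IDs higher and 2.06% lower in RPI11. PIP2-2 was higher in RPI11 (log2 fold change 1.42, edgeR adjusted p = 0.0648) and PIP1-3 was lower (-1.78, edgeR adjusted p = 0.0923). Both of these were called with DESeq2 size factors within edgeR (adjusted p = 0.00684 for PIP2-2 and 0.0217 for PIP1-3) and with library totals (adjusted p = 0.00722 and 0.0172, in the same order). With 1 library per code and genotype, plants and library preparations cannot be told apart.

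The other aquaporins of the table gave a context for the family. They were the TIPs of the vacuole membrane, the NIPs, which carry small solutes such as silicic acid, and the SIPs of internal membranes. Of 11 such genes 5 were tested, 2 higher and 2 lower in the hybrid and 1 not called, where 25.3% and 25.4% of all tested IDs were higher and lower. The 2 lower genes passed the filter through the B73 libraries alone. With the hybrid below the filter's level, they were tested only because of the genotype where they were higher. The median log2 fold change of the 5 tested genes was 0.38, against -0.04 over all tested IDs. Those higher were NIP2-2 (log2 fold change 3.81, edgeR adjusted p = 0.000276) and TIP1-1 (1.05, edgeR adjusted p = 0.0399). Those lower were SIP1-2 (-3.57, edgeR adjusted p = 0.000201) and NIP2-1 (-1.88, edgeR adjusted p = 0.0238), the gene RefSeq also lists as Lsi1. NIP2-1 had 7 and 10 counts in the hybrid, against 5 and 29 in B73. That is 6.85 and 14.2 CPM in the hybrid, against 13.9 and 56.7 CPM in B73, so the genotypes overlapped for NIP2-1. Pooled, the 11 genes reached 403 and 447 CPM in the hybrid, against 281 and 323 CPM in B73, a ratio of 1.41. With library totals that ratio was 0.854, so its direction also turned with the scaling.

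Markers of green leaf tissue were compared between genotypes beside the PIP genes. Of the 3 with rows, CAB1 (a chlorophyll-binding protein) and FDX2 (a ferredoxin) were called higher in the hybrid, where 25.3% of all tested IDs were. The third, psbA (the photosystem II D1 protein), was not called (log2 fold change 0.73, edgeR adjusted p = 0.114). With library totals psbA was at 400 and 376 CPM in the hybrid, against 392 and 379 CPM in B73. The summed level of the 3 markers was 2056 to 2675 CPM in the hybrid, against 722 to 735 CPM in B73. CAB1 alone gave 1398 to 1909 CPM of this in the hybrid and 391 to 406 CPM in B73. The part of such differences between the seedlings in the PIP values was not tested. In whole seedlings, fewer cells of a type and less RNA per cell cannot be told apart.

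Likeness of pattern was measured from PIP2-1, the member with the highest mean level, as the Euclidean distance between centred log2(CPM + 1) values over the 4 libraries. Among 80 gene symbols tested outside the aquaporins, the nearest were DER2.2 (distance 0.154), GRF1 (0.197) and rpoC1 (0.344). DER2.2 had 28.4 and 34.2 CPM in the hybrid, against 13.9 and 17.6 CPM in B73. The nearest other PIP member was PIP2-5 (0.776), and PIP1-3 was the farthest (5.22). Both distances rest on low counts, since PIP2-5 had 3 and 3 counts in B73 and PIP1-3 had 0 in the RPI11 hybrid library. With 4 libraries, 407 other tested IDs lay nearer to PIP2-1 than PIP2-5 did. Distances between the other members were not computed.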

How the data were processed

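The authors deposited whole-number counts per ID in 1 table with a column per library. Per the submitters' processing notes, tools included CASAVA 1.4, HISAT2 and UMI-tools with the build B73 RefGen_v4. The annotation, and whether identifiers were collapsed, are not given in the sources used here. Because the build is that of B73, transcripts of A188 origin were counted against another line's sequence. What this does to PIP counts was not tested.

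The test was edgeR's (version 4.0.16, R 4.3.3) on the 4 libraries, with a term for genotype alone. The filter was filterByExpr with a minimum count of 10, scaling was TMM, and the threshold was an adjusted p of 0.05. glmTreat used a log2 fold change of 1. Standard errors were derived from the fold change and its F statistic. Counts between libraries of a genotype differed beyond counting noise (chi-square 11.5 times its degrees of freedom in the hybrid and 5.43 in B73), so they were kept as separate samples. DESeq2 1.42.0 and other scalings, filters, depths and left-out libraries were alternatives. The fit was tested on simulated data, where folds and error rates were recovered but many low-count changes were missed. There few IDs changed, as many up as down, and all shared the same dispersion. In these data 50.6% of tested IDs were called, so the error rates of these calls were not measured. Named genes were all PIP rows, the other aquaporin symbols and the 3 symbols nearest in pattern to the most abundant PIP. The members and lists were chosen with earlier results of these data known.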

Additional observations from a re-analysis of the deposited data

How the results depend on the processing

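PIP2-3 and PIP2-4 kept their direction and their call of any difference in every alternative that tested them, with log2 fold changes from 3.81 to 4.93 and from 1.83 to 3.43. The alternatives refit the same 4 libraries, and in the main fit both genes passed the filter through the hybrid libraries alone. These results are therefore not independent support. PIP2-4 was not tested at equal depth, and neither gene was tested with at least 10 counts in every library. There 1 member remained, and 0 were called higher or lower (22.7% and 18.7% of all IDs). That member was PIP2-1, whose log2 fold change turned to -0.024 at equal depth. Against 2 members called higher and 1 lower, equal depth gave 1 and 0 of 3 tested (20.8% and 30.2% of all IDs). DESeq2 gave 0 lower (4.93% of all IDs), as did a threshold of 0.01 (16.6%). Fits leaving 1 library in a genotype are not in these counts. Past 2-fold, against 2 higher and 0 lower, library totals gave 1 and 1 (7.28% and 27.3% of all IDs). There PIP2-4 was lost and PIP1-3 gained. Equal depth, DESeq2 and a threshold of 0.01 gave 1 higher (10.1%, 15.2% and 8.17% of all IDs, in that order). At least 10 counts in every library gave 0 higher (7.84%). Between codes, library totals and DESeq2 size factors each gave 1 member higher (1.92% of all IDs in both) and 1 lower (2.71% and 2.80%).

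In a fit with the code as a replicate block, 4 members were called higher and 1 lower (29.6% and 27.4% of all IDs), and 1 was lower past 2-fold (15.8%). PIP2-1 (edgeR adjusted p = 0.0206) and PIP2-2 (0.0199) were then called. With library totals and the block together, an alternative added after seeing the data, they were not (0.708 and 0.255). Deviations of same-coded libraries had a correlation of 0.248 across IDs. The common dispersion was 0.0230 with the block and 0.0699 without it. No label says what the codes mark, so whether they pair the libraries is not known.

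The pooled log2 ratio (1.17 for all PIP genes) was 0.39 at equal depth, 0.45 with library totals and 1.40 with DESeq2's factors, and 1.08 to 1.26 with a library left out. For PIP2 (1.66) it was 0.94 with library totals and 0.93 at equal depth, and 1.37 to 2.03 with a library left out. For PIP1 (-1.03) it was -3.09 at equal depth, where PIP1 genes had few counts, and -1.73 to -0.30 with a library left out. The PIP1 share was 2.96% at equal depth in the hybrid, against 7.25% at full depth. With a library left out it was 4.85% to 9.65% in the hybrid and 20.3% to 48.1% in B73. Equal depth was a single random draw. In the RPI10 hybrid library it left PIP1-3 with 0 counts and PIP1-5 with 1, from 16 and 20 at full depth. The cause of these shifts was not tested.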
